A study of Mus musculus with 8 samples.

Results

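The genes described here are the secreted scavenger protein gene Cd5l and the receptor genes Cd36, Msr1, Marco, Mrc1, Cd68 and Scarb2, 7 of the 19669 genes in a single-cell RNA table of mouse erythroblastic islands, chosen by name. Erythroblastic islands are the clusters of red cell precursors that mature around a central macrophage. The labels name 8 libraries, all of male Sle1.Yaa mice, a strain that develops lupus. Anemic mice with a human TLR8 transgene gave 2 bone marrow and 2 spleen libraries. Non-anemic mice of the same strain served as controls and gave 3 bone marrow libraries and 1 spleen library. Both arms therefore carried Sle1 and Yaa, and no label gives an age. Islands were enriched on albumin gradients and taken apart with EDTA and gentle force, so each library also held cells that surround or settle with the islands.

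Scavenger receptors let macrophages bind and engulf modified lipoproteins, dying cells, glycoproteins and microbes, and in marrow and spleen they belong to the equipment with which resident macrophages clear aged red cells and expelled nuclei. Cd5l, also called AIM, is secreted by tissue macrophages and circulates bound to IgM. Cd36 also takes up long-chain fatty acids and is not confined to macrophages, while Cd68 and Scarb2 sit mainly in the membranes of endosomes and lysosomes, where Scarb2 (LIMP2) delivers the lysosomal enzyme glucocerebrosidase.

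The table held 24942 cells and 248384567 unique molecular identifiers (UMIs, each standing for 1 captured RNA molecule), with 500 to 83490 UMIs per cell and a median of 7554. Its columns carried barcodes with no library name, so no cell could be given a tissue or genotype and transgenic and control mice were not compared. Barcode order restarted to give 8 runs of 447 to 6787 cells, which served as unnamed libraries. The runs show spread only and are replicates of no group. Across runs, 287 barcodes recurred, in 1031 cells or 4.13% of all, among them 16 of the 475 island macrophage-like cells. Leaving those cells out moved none of the counts given below. Cells were clustered without the 7 genes and named from markers that include none of them. Levels are UMIs per 1000000 UMIs of a class (CPM), with exact 95% Poisson intervals that cover counting error only, and no test was made, since the table is 1 pooled sample with no library names.

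The 7 genes lie on 6 chromosomes in GRCm38, and the GENCODE M21 annotation calls each of them protein coding. Cd5l is at chr3:87357881-87371073 on the plus strand and Mrc1 at chr2:14229392-14332057, also on the plus strand. Marco (chr1:120474538-120505024), Msr1 (chr8:39581685-39642673), Cd68 (chr11:69664213-69666153), Cd36 (chr5:17781690-17888801) and Scarb2 (chr5:92441314-92506833) are on the minus strand. No other protein-coding gene overlapped any of them. The microRNA gene Mir511 lies inside Mrc1 on the same strand, and Mir6415 lies inside Scarb2 on the other.

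Promoter windows from RefSeq (GRCm38.p6) were found for 6 of the 7 genes and run from 250 bases before the start site to 50 after it. Those of Cd5l, Mrc1 and Marco are shown because most UMIs of these genes came from 1 class of macrophage, and that of Cd36 because most of its UMIs came from erythroid cells. All are printed on the gene's own strand. Capitals mark GAGGAA, the core bound by the myeloid factor PU.1, TGCTGA, a core of Maf recognition elements, and AGATAA, a site of GATA factors, each searched on both strands.
Cd5l (chr3:87357631-87357930, plus strand): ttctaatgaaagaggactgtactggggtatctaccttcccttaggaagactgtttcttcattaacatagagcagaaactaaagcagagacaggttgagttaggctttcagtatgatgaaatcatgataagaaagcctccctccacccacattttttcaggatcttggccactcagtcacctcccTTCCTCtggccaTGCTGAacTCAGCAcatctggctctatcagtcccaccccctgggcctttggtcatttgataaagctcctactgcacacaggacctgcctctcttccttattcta
Mrc1 (chr2:14229164-14229463, plus strand): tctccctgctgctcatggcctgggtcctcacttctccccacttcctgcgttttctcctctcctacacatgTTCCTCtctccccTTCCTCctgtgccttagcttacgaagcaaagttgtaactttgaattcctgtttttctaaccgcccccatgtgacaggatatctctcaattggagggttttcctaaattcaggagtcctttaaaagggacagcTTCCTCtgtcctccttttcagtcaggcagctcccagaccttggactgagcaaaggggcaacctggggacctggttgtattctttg
Marco (chr1:120504975-120505274, minus strand): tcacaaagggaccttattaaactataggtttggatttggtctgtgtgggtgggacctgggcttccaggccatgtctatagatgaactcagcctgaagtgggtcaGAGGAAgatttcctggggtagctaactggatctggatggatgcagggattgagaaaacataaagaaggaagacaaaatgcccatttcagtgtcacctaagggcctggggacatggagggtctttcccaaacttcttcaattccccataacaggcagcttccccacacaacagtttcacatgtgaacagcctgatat
Cd36 (chr5:17835847-17836146, minus strand): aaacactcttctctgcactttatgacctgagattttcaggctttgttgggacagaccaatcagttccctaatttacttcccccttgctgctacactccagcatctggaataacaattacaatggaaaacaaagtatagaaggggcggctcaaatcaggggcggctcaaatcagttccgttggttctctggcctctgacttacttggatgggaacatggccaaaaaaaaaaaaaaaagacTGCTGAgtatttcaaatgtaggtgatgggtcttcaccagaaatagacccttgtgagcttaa

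The Cd5l window held 1 PU.1 core and 2 Maf cores, 66, 54 and 46 bases before the start site. The Mrc1 window held 3 PU.1 cores, the Marco window 1, and the Cd36 window 1 Maf core. None of the printed windows held AGATAA. Other forms of the GATA site, such as the TGATAA in the Cd5l window, were not searched or marked. Of all 27025 promoter windows, 28.3% held the PU.1 core, 19.1% the Maf core and 11.4% the GATA site, so a match to any of them is common by itself. The motifs did not overlap each other in these windows. The printed Cd36 window lies inside the span that GENCODE gives the gene, and starts further upstream were not searched.

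Cd5l, Marco and Mrc1 RNA came mostly from island macrophage-like cells, Cd36 RNA from erythroid-like cells and Msr1 RNA from monocyte-like cells. The island macrophage-like class held 475 cells, 1.91% of those clustered, with a median of 2154 UMIs. All 21 of its markers had UMIs and 19 reached 50 CPM, among them the adhesion molecule Vcam1 at 4389 CPM and the heme-degrading enzyme Hmox1 at 4508 CPM. These cells held 89.3% of all Cd5l UMIs (exact binomial 95% interval 88.6 to 90.0%), 88.8% of Marco and 79.1% of Mrc1. The erythroid-like class, 40.4% of cells, held 91.0% of Cd36. The monocyte-like class, 5.27% of cells, held 77.7% of Msr1 and 43.7% of Cd68. Scarb2 was spread most widely, and its largest share was the 24.4% in monocyte-like cells.

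**Figure D1:**
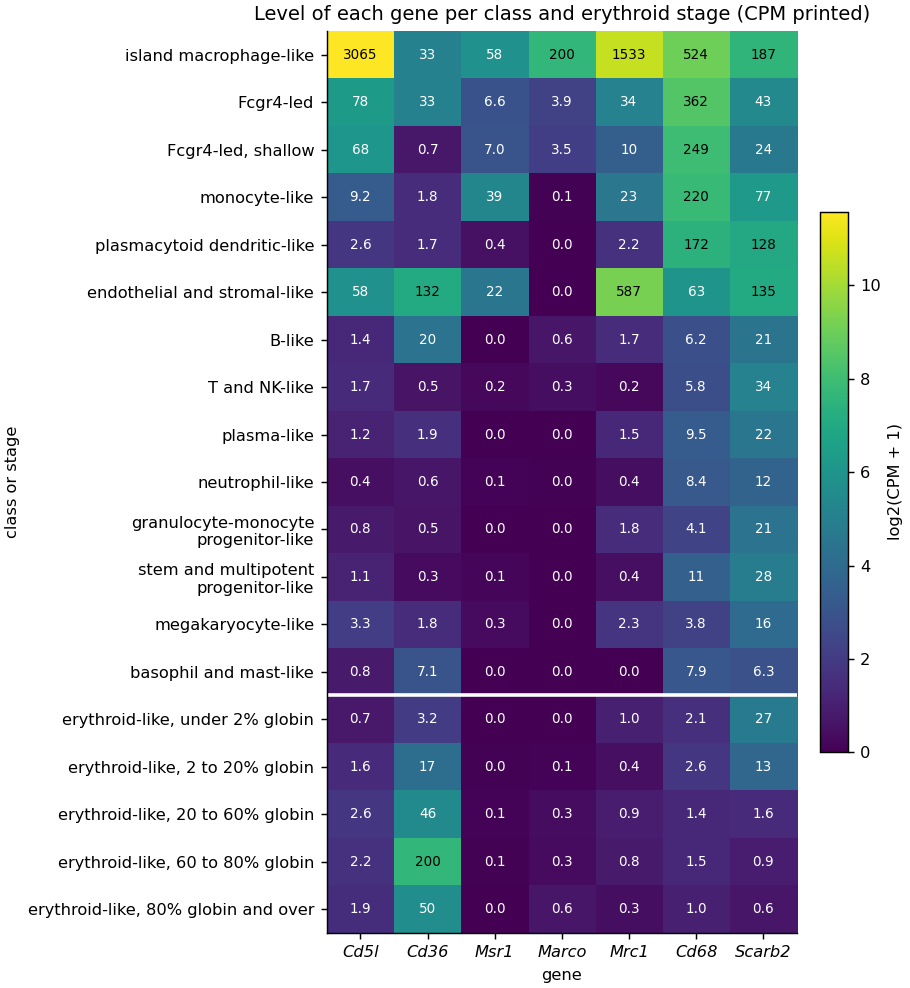
Level of each of the 7 genes (columns) in the 14 named classes that are not erythroid-like and, below the white line, in the 5 erythroid-like stages (rows); colour is log2(CPM + 1) and the CPM is printed, to be compared down a column. Island macrophage-like cells have the highest level of 6 genes, and Cd36 is highest at 60 to 80% globin with 200 CPM.

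The secreted member came first by size. Cd5l averaged 3065 CPM in island macrophage-like cells (2995 to 3137), against 77.8 CPM in the cluster led by the IgG receptor Fcgr4 (68.6 to 87.8) and 9.20 CPM in monocyte-like cells (7.82 to 10.8). A shallow second cluster led by Fcgr4, with a median of 812 UMIs, had 67.6 CPM, and its interval overlapped that of the deeper one. The endothelial and stromal-like class followed with 57.9 CPM on 21 UMIs, 18 of them in run 6, without which it was at 26.0 CPM. In the other named classes and stages Cd5l stayed at or under 3.33 CPM. In the 4 runs with at least 20 island macrophage-like cells, Cd5l was at 1507, 2787, 1589 and 3915 CPM in runs 3, 5, 6 and 7. Each of these exceeded the highest Fcgr4-led run with that many cells, 415 CPM, so the runs of these 2 classes did not overlap.

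Among the class A receptors, which bind polyanions and particles, Marco and Msr1 had different distributions. Marco was at 200 CPM in island macrophage-like cells (183 to 219), against 3.89 CPM in Fcgr4-led and 0.06 CPM in monocyte-like cells, where a single UMI was found in 1314 cells. Its level was uneven between runs, at 0, 198, 16.3 and 331 CPM in runs 3, 5, 6 and 7. Runs 5 and 7 were high, run 6 was low, and run 3 had no Marco UMI in 30 island macrophage-like cells, which allows up to 34.7 CPM. Without run 7 the pooled Marco level of island macrophage-like cells was 93.3 CPM, and without run 5 that of Fcgr4-led cells was 1.43 CPM. Msr1 was at 57.6 CPM in island macrophage-like cells (48.3 to 68.2) and 38.7 CPM in monocyte-like cells (35.8 to 41.8), against 6.58 CPM in Fcgr4-led cells, or 3.01 CPM there without run 3. Its runs overlapped between island macrophage-like cells (9.42 to 93.8 CPM) and monocyte-like cells (23.3 to 58.8 CPM). The pooled Msr1 order rested on run 7, and without it the island macrophage-like level was 28.0 CPM, below that of monocyte-like cells.

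Mrc1, the mannose receptor that clears glycoproteins with exposed mannose, averaged 1533 CPM in island macrophage-like cells (1483 to 1584), against 33.8 CPM in Fcgr4-led and 23.3 CPM in monocyte-like cells. It was at 2082, 818, 1404 and 1904 CPM in runs 3, 5, 6 and 7. All 4 runs lay above the highest Fcgr4-led run, 279 CPM in run 6. That run held 69 of the 113 Mrc1 UMIs of Fcgr4-led cells, whose pooled level was 14.2 CPM without run 6 and 51.4 CPM without run 7. The second class by Mrc1 was the endothelial and stromal-like one with 587 CPM (511 to 671). There Mrc1 came from the 43 cells that also had a UMI of the endothelial genes Cdh5, Kdr, Emcn or Stab2, at 818 CPM. The 18 cells with none of these had no Mrc1 UMI, which allows up to 36.0 CPM. The 43 cells also carried the macrophage gene C1qa at 449 CPM, and its part in their Mrc1 and Cd5l levels was not tested.

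The lysosomal members were higher in island macrophage-like cells too, but by smaller steps. Cd68 was at 524 CPM in island macrophage-like cells (495 to 555), 362 CPM in Fcgr4-led cells (342 to 383), 220 CPM in monocyte-like cells (213 to 227) and 172 CPM in plasmacytoid dendritic-like cells. By run, Cd68 was at 707, 561, 746 and 374 CPM in island macrophage-like cells of runs 3, 5, 6 and 7. The lowest of these lay below the highest run of Fcgr4-led cells, 486 CPM. Scarb2 was at 187 CPM in island macrophage-like cells (170 to 206), 135 CPM in endothelial and stromal-like cells (99.9 to 178) and 128 CPM in plasmacytoid dendritic-like cells (118 to 139). The first 2 of these intervals overlapped. Monocyte-like cells had 76.6 CPM and Fcgr4-led cells 43.4 CPM. By run, Scarb2 was at 188, 104, 181 and 219 CPM in island macrophage-like cells of runs 3, 5, 6 and 7, against 61.8 to 118 CPM over the runs of monocyte-like cells, so these ranges overlapped.

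Cd36, a class B receptor for oxidised lipoproteins and fatty acids, had a macrophage level that differed widely between runs. Its pooled level was 32.9 CPM in island macrophage-like cells (25.9 to 41.1) and 33.2 CPM in Fcgr4-led cells (27.3 to 40.0), against 1.81 CPM in monocyte-like cells (1.23 to 2.56). In island macrophage-like cells it was at 75.4, 3.92, 114 and 2.84 CPM in runs 3, 5, 6 and 7. Fcgr4-led cells had 118, 5.48, 76.7 and 0 CPM in the same runs, where the 0 allows up to 2.84 CPM. Thus runs 3 and 6 were high and runs 5 and 7 low in both classes. The pattern of Marco was nearly the opposite, with runs 5 and 7 high. Without run 6, Cd36 was at 7.82 CPM in island macrophage-like cells, and without run 7 at 57.5 CPM there and 54.3 CPM in Fcgr4-led cells. Late erythroid markers summed to 37118 CPM in island macrophage-like cells (5765 to 52612 over the 4 runs, all 12 markers detected). Globin genes are among these markers, and the class had a globin share of 3.63%, so most of the sum was globin. The erythroid part of the Cd36 level was not tested. Leaving out the 52 island macrophage-like cells richest in globin left Cd36 at 39.6 CPM.

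**Figure D2:**
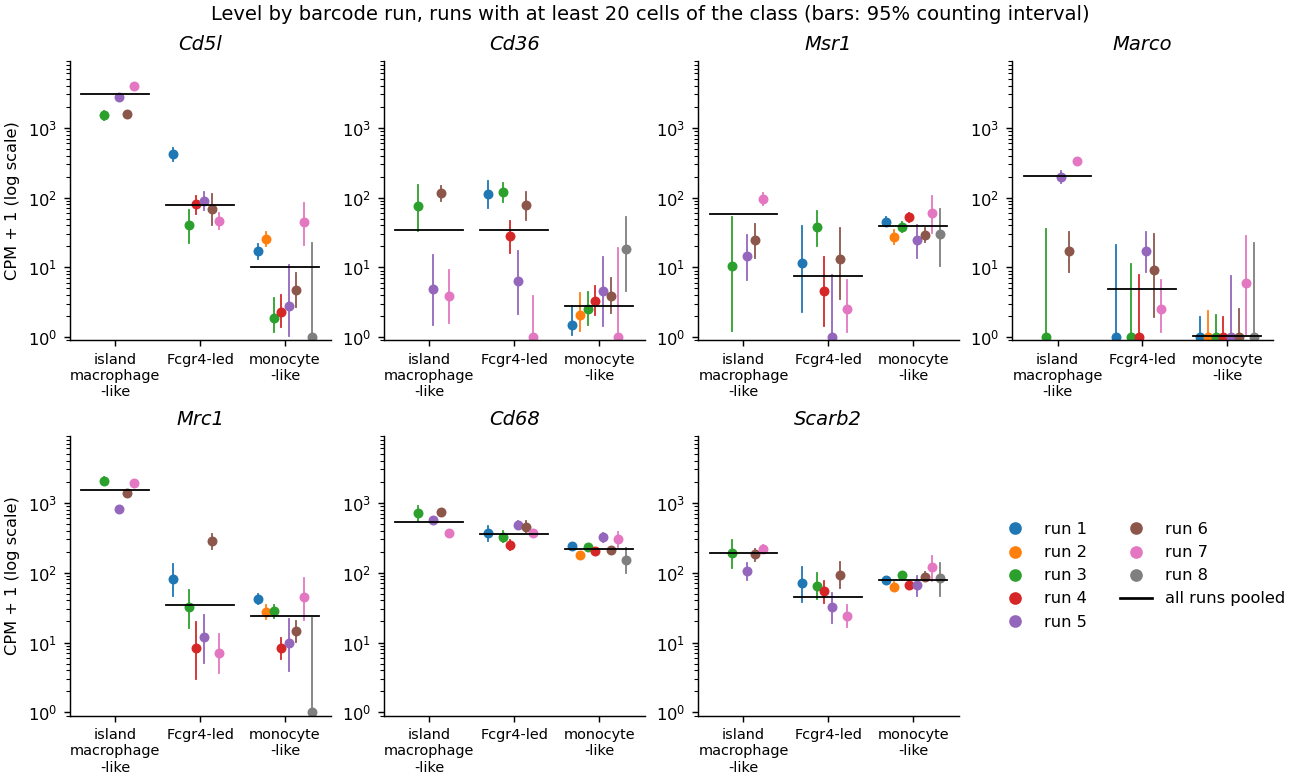
Level of each gene (CPM + 1, log axis) in island macrophage-like, Fcgr4-led and monocyte-like cells, 1 point per barcode run with at least 20 cells of the class, with 95% Poisson bars; the black line is the pooled level. The Cd5l and Mrc1 points of island macrophage-like cells stand above those of the other classes, while Cd36 in runs 5 and 7 lies at or below 5.48 CPM in both of the first 2 classes.

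Against monocyte-like cells, 6 of the 7 genes were at least 2-fold higher in island macrophage-like cells with the same sign in all 4 runs compared, and none was lower. Of all 6362 genes measured there, 14.2% were higher and 10.5% lower by the same rule, 24.7% in either direction. Differences are log2 ratios after adding 10 CPM to both levels, centred on the median gene. They were 7.38 for Cd5l, 5.59 for Mrc1, 4.44 for Marco, 1.92 for Cd36, 1.27 for Cd68 and 1.24 for Scarb2. Msr1 was at 0.53, and its sign differed between runs (-1.25 to 0.56). The count for Marco is weak in run 3, where neither class had a Marco UMI and the sign came from the centring. Uncentred, 5 genes were counted and Marco was not. For Cd36 the difference was 0.09 in its lowest run, and without run 6 it was 0.68 and no longer counted. Cd36 was also not counted without the island macrophage-like cells richest in globin, at resolution 0.5, with the 7 genes kept in the clustering or with stricter cell filters.

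Against Fcgr4-led cells, 3 of the 7 genes were higher in island macrophage-like cells by the same rule, and none was lower. Of 6196 genes measured, 8.78% were higher, 5.33% lower and 14.1% either. The 3 were Cd5l with a centred log2 difference of 5.18 (4.29 to 6.16 over runs), Mrc1 with 5.18 (2.24 to 6.90) and Scarb2 with 1.93 (0.84 to 2.80). Marco differed by 3.97 and Msr1 by 2.07, but each had the other sign in 1 run, -0.02 for Marco and -1.27 for Msr1. That run was run 3, where neither class had a Marco UMI, and without it both genes were counted, 5 in all. Cd68 differed by 0.57 and Cd36 by 0.04.

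Cells of equal depth were compared after each was thinned to 1000 UMIs, which left out 140 of the 475 island macrophage-like cells. Cd5l was detected in 71.9% of the remaining 335 island macrophage-like cells (exact binomial 95% interval 66.8 to 76.7%), against 4.22% of Fcgr4-led, 0.31% of monocyte-like and 0.10% of T and NK-like cells, which should lack it. Mrc1 was detected in 63.9% of island macrophage-like cells, against 4.68% of Fcgr4-led, 1.09% of monocyte-like and 0% of T and NK-like cells. Among the last, 3 cells would be 0.294%. Cd68 was found in 40.0% of island macrophage-like cells and 0.78% of T and NK-like cells. Scarb2 was found in 14.3% of island macrophage-like cells, above the 3.62% of T and NK-like cells. Marco was found in 9.25%, Msr1 in 5.07% and Cd36 in 2.99% of island macrophage-like cells, against at most 0.10% of T and NK-like cells for each. Before thinning, Cd5l was detected in 74.5% of island macrophage-like cells and Mrc1 in 63.8%.

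The thinned island macrophage-like cells carried few of the 7 genes at a time at this depth. UMIs of 2 of the genes were found in 41.2% of cells, of 3 in 25.7%, of 1 in 21.5% and of none in 5.37%. No cell had all 7. Cd5l and Mrc1 were found together in 168 of 335 cells, Cd5l alone of that pair in 73 and Mrc1 alone in 46. Marco was found in 31 cells, 30 of them with Cd5l. Cd36 was found in 10 cells, none of them with Marco, where 3 joint cells would be 0.896%. With Cd36 in 10 and Marco in 31 of 335 cells, hardly any joint cells could occur. Their absence therefore does not show that the 2 genes exclude each other. The levels of Cd36 and Marco were highest in different runs.

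**Figure D3:**
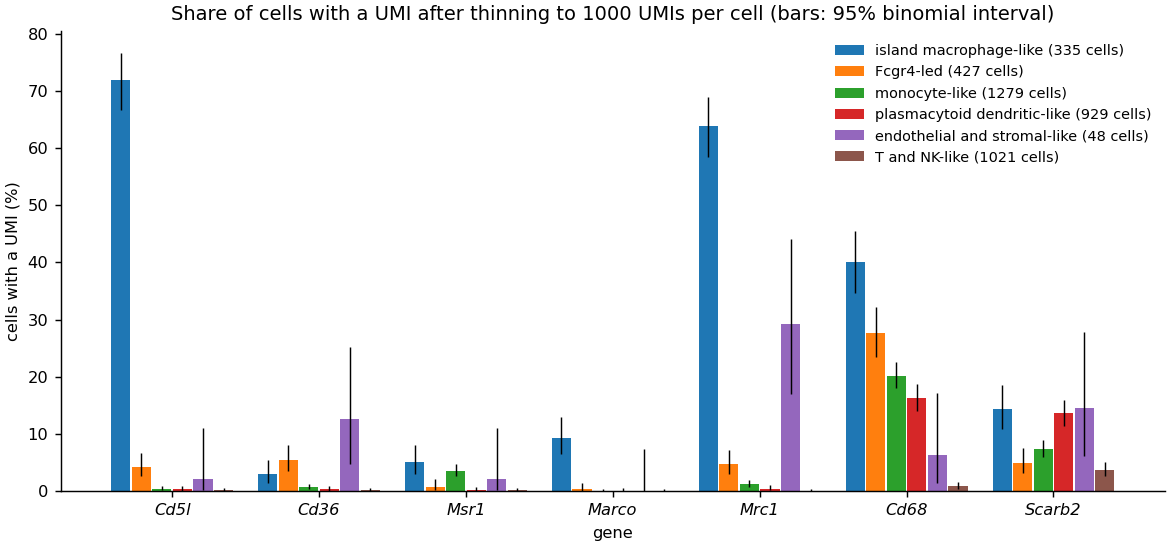
Share of cells with at least 1 UMI of each gene after thinning every cell to 1000 UMIs, in 6 classes, with exact binomial 95% bars and the number of cells in the legend. Cd5l reaches 71.9% and Mrc1 63.9% of island macrophage-like cells, and Mrc1 29.2% of endothelial and stromal-like cells.

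At the finer cluster resolution of 2, the phagocytes split into clusters that differed in their scavenger genes. The island macrophage-like cells divided into 282 cells led by Cd5l, Fcna and Hmox1, with a median of 5423 UMIs, and cells that joined a second cluster of 280 led by the chemokine gene Ccl8 with C1qb and Apoe, with a median of 858 UMIs. Of the 280, 192 had been island macrophage-like and 88 in the shallow Fcgr4-led cluster. Leading genes were ranked over all genes, the 7 included, so the label Cd5l-led already reflects a high Cd5l level. Ccl8-led cells had 1071 CPM of Cd5l (955 to 1198), against 3216 CPM in Cd5l-led cells, and 314 CPM of Mrc1 (252 to 386), against 1643 CPM. Scarb2 was also lower in Ccl8-led cells, 90.7 CPM against 195 CPM. Runs 5, 6 and 7 held at least 20 cells of both clusters, in unequal shares (85, 39 and 38 Ccl8-led cells, against 25, 120 and 110 Cd5l-led cells). Within them Cd5l was at 1453, 996 and 2220 CPM in Ccl8-led cells, against 3070, 1608 and 3976 CPM in Cd5l-led cells, a smaller gap than the pooled one but in the same direction in each run. Mrc1 was at 73.2, 769 and 685 CPM in Ccl8-led cells, against 983, 1430 and 1948 CPM in Cd5l-led cells, and Scarb2 was lower in Ccl8-led cells in each run too. Marco was at 164 CPM in Ccl8-led cells (120 to 218) and 198 CPM in Cd5l-led cells (179 to 218), so the pooled intervals overlapped, but its runs went opposite ways. It was at 345, 0 and 219 CPM in Ccl8-led cells of runs 5, 6 and 7, against 165, 17.2 and 335 CPM in Cd5l-led cells. Without run 5 the Ccl8-led level was 73.3 CPM, and without run 7 the Cd5l-led level was 73.2 CPM. Cd68 was at 481 CPM in Ccl8-led and 522 CPM in Cd5l-led cells, and Msr1 at 48.8 CPM in Ccl8-led and 60.3 CPM in Cd5l-led cells (27.7 CPM without run 7), again with overlapping intervals. Cd36 had a single UMI in the 280 Ccl8-led cells. The part of depth in these differences was not tested.

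The Fcgr4-led cells split as well, into clusters that also took in other cells and that differed in Cd36. The 192 cells led by Ace, Ear2 and Eno3 (Ace encodes angiotensin-converting enzyme) had 140 CPM of Cd36 (112 to 171) and no Marco UMI, where 3 UMIs would be 4.60 CPM. They had 3.07 CPM of Cd5l and 4.60 CPM of Mrc1, on 2 and 3 UMIs. The 384 cells led by Fcgr4, C1qb and C1qc had 9.51 CPM of Cd36 (6.66 to 13.2), 103 CPM of Cd5l and 88.5 CPM of Mrc1. Run 7 gave 17 of the Ace-led and 124 of the Fcgr4- and C1qb-led cells and no Cd36 UMI in either. In runs 3, 4 and 6, with at least 20 cells of both, Cd36 was at 170, 154 and 72.1 CPM in Ace-led cells, against 23.7, 10.0 and 64.3 CPM in Fcgr4- and C1qb-led cells. The gap was wide in runs 3 and 4 and small in run 6, where the Ace-led value rested on 5 UMIs. Without run 7 the Fcgr4- and C1qb-led level was 14.7 CPM, and without run 6 it was 6.16 CPM. Cd68 was at 232 CPM in Ace-led and 387 CPM in Fcgr4- and C1qb-led cells. Of the 192 Ace-led cells, 114 had been in the Fcgr4-led cluster of the main clustering, as had 315 of the 384 Fcgr4- and C1qb-led cells. The contrast is therefore not one within Fcgr4-led cells alone.

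**Figure D4:**
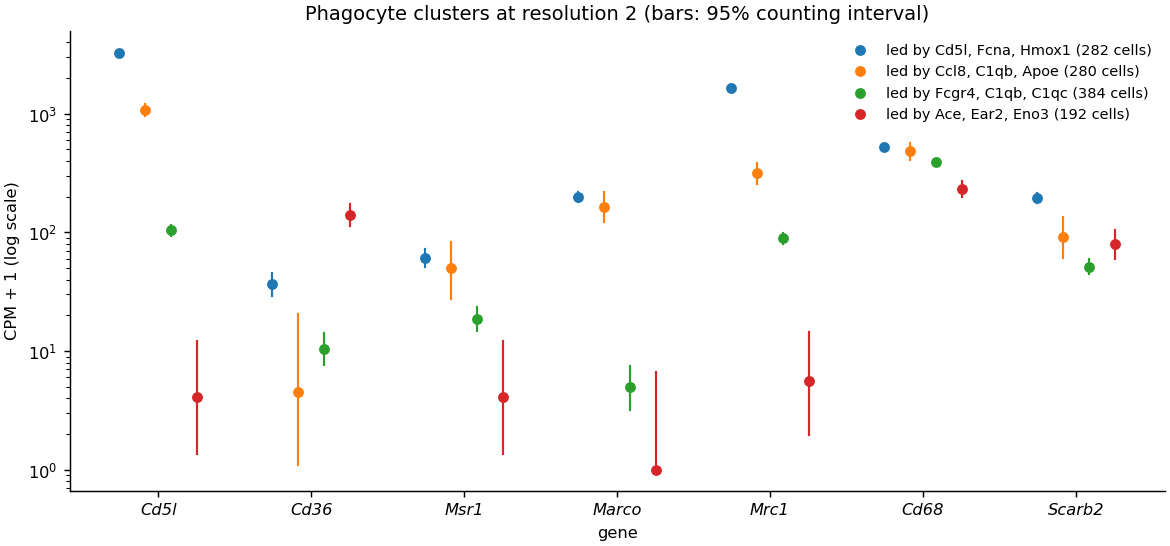
Level of each gene (CPM + 1, log axis) in 4 phagocyte clusters found at resolution 2, with 95% Poisson bars and the number of cells in the legend. Cd5l is at 3216, 1071, 103 and 3.07 CPM in the clusters in the order of the legend, while Cd36 is highest in the Ace-led cells with 140 CPM.

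In erythroid-like cells Cd36 was higher at each step up to late maturation. The 10071 cells were staged by the globin share of their UMIs. Cd36 was at 3.21 CPM under 2% globin, 17.2 CPM at 2 to 20%, 46.3 CPM at 20 to 60%, 200 CPM at 60 to 80% (193 to 206) and 50.04 CPM at 80% and over. The stage with 60 to 80% globin was the highest in all 8 runs, at 91.6, 74.1, 366, 476, 105, 117, 74.0 and 349 CPM in runs 1 to 8. Runs 3, 4 and 8 were well above the other runs, although run 8 had only 11 cells of that stage. Per 1000000 UMIs that are not globin, Cd36 was at 3.23, 19.3, 78.0, 652 and 488 over the same 5 stages. On that scale the last stage lay much closer to the peak. Cells within 10% of a stage boundary numbered 74, 282, 1259 and 1391 at 2, 20, 60 and 80% globin.

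Against the early stage of 2 to 20% globin, Cd36 was the only member of the 7 with at least 20 CPM in either stage. It was counted as higher in the stage with 20 to 60% globin, as were 6.2% of 4694 genes (3.96% lower, 10.2% either), with a centred log2 difference of 1.58 (0.64 to 1.85 over 7 runs). It was also higher in the stage with 60 to 80% globin, as were 15.6% of 4680 genes (12.2% lower, 27.8% either), with 4.44. Because globin fills the total, the median gene was at -0.53 and -1.50 before centring, and the uncentred Cd36 differences were 1.05 and 2.94. Over all genes, 291 were higher and 186 lower at 20 to 60% globin with centring, and 59 and 969 without it. At 60 to 80% globin, 730 were higher and 569 lower with centring, and 154 and 3347 without it. Scarb2 went the other way in level, at 27.3, 13.1, 1.63, 0.93 and 0.61 CPM over the 5 stages, or 27.5, 14.6, 2.75, 3.04 and 5.91 per 1000000 UMIs that are not globin. Without run 6 the first stage was at 15.7 CPM and the second at 11.3 CPM. Its last 2 stages rested on 18 and 11 UMIs. Cd5l, Cd68, Mrc1, Marco and Msr1 stayed at or under 2.56 CPM in every stage.

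Cd36 was uneven among late cells. At 60 to 80% globin, 1059 of the 2119 cells had no Cd36 UMI, while the 13.5% with 5 or more held 58.8% of its UMIs. Cells with 5 or more were deeper, with a median of 10288.5 UMIs against 7323 in cells with none. Runs 3 and 4, with 323 and 309 of the late cells, held 1089 and 1310 of the 3857 Cd36 UMIs. The part of depth and run in this unevenness was not tested. The cluster led by Xpo7, Tmcc2 and Slfn14 gave 808 of the late cells and had 319 CPM (307 to 332). The clusters led by Tmcc2 and by Apol11a had 160 and 152 CPM, and the other 3 clusters 35.6 to 60.5 CPM. One of these had 366 of its late cells in run 6. In runs 3, 4, 5 and 7 the Xpo7-led cells had 455, 522, 142 and 113 CPM, against 259, 373, 90.6 and 41.8 CPM in Apol11a-led cells, so the order held in each of these runs. Runs 3 and 4 gave 214 and 233 Xpo7-led cells but only 6 and 8 Tmcc2-led cells. Runs 5 and 6 had at least 20 cells of both. There Xpo7-led cells had 142 and 236 CPM, against 107 and 201 CPM in Tmcc2-led cells, a smaller gap than the pooled one. In run 4 the 8 Tmcc2-led cells were higher, at 625 CPM. An unnamed cluster of 117 cells led by Slfn14, Xpo7 and Ypel4, with 21.02% globin, had 738 CPM (624 to 867). It was shallow, with a median of 1497 UMIs, and held 149 Cd36 UMIs. In its runs with at least 20 cells, runs 4, 5 and 7, Cd36 was at 1900, 564 and 335 CPM. Without run 4 the level was 560 CPM. Island macrophage markers summed to 47.5 CPM in late cells with 5 or more Cd36 UMIs, against 70.1 CPM in late cells with none. These groups of cells differed in depth, as given above, and whether macrophage RNA added to their Cd36 was not tested.

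**Figure D5:**
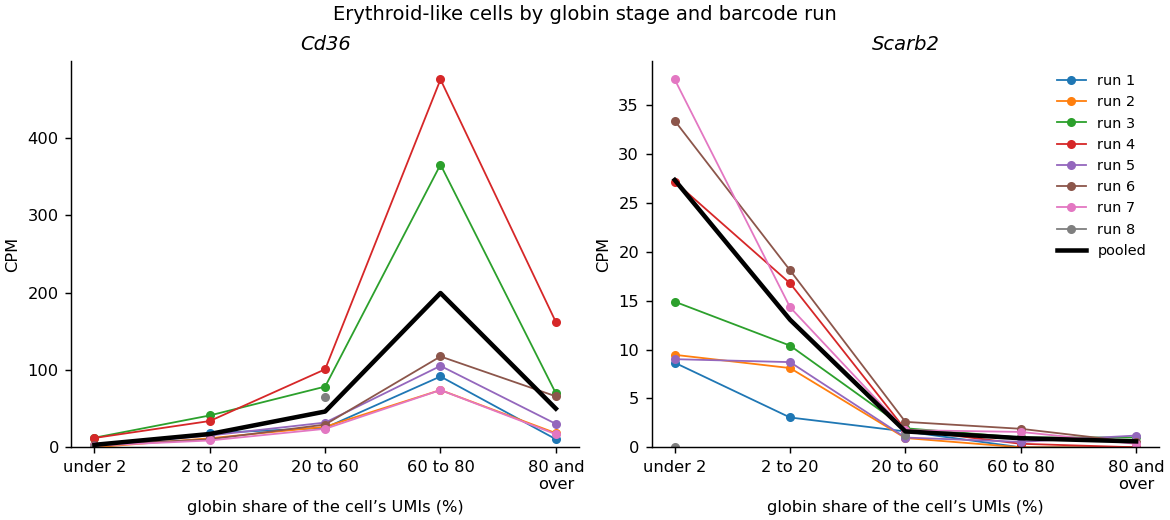
Level (CPM) of Cd36 (left) and Scarb2 (right) in erythroid-like cells over 5 stages of globin share, 1 coloured line per barcode run (points with at least 20 cells) and the pooled level in black. Cd36 peaks at 60 to 80% globin in every run shown there, with runs 3 and 4 at 366 and 476 CPM, while pooled Scarb2 is 27.3 CPM under 2% globin and 0.61 CPM at 80% and over.

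Outside these classes, Cd36 was found in B-like cells at 20.4 CPM, with 1.12 to 92.9 CPM over 7 runs. Run 8 held 74 of the 129 UMIs, and without it the level was 9.97 CPM. Within them it was at 32.9 CPM (27.1 to 39.6) in the cluster led by Ms4a1 and Ighd, against 6.22 CPM in that led by Vpreb3 and Ebf1, which had no cells in runs 5, 7 and 8. Without run 8 the Ms4a1-led level was 14.4 CPM. In runs 3, 4 and 6, with at least 20 cells of both, Cd36 was at 25.5, 7.61 and 37.2 CPM in Ms4a1-led cells, against 8.91, 7.83 and 1.97 CPM in Vpreb3-led cells, so run 4 did not share the pooled order. In endothelial and stromal-like cells Cd36 was at 132 CPM (97.5 to 175; 78.1 CPM without run 6), again from the cells with an endothelial UMI (184 CPM) and not from the 18 others, which had none.

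Genes of the same pathways were described by the same rule. The lists share some genes. Lamp1 and Lamp2 are on the scavenger and lysosome lists, Npc1, Npc2 and Lipa on the lipid and lysosome lists, and Nr1h3 on the lipid and transcription factor lists. Of a list of other scavenger receptors and related genes, 27 were in the table. That list is broad and also holds the transferrin receptor Tfrc, the platelet gene Clec1b and the lysosomal membrane genes Lamp1 and Lamp2. Against monocyte-like cells, 7 of 11 measured were higher in island macrophage-like cells and none lower (median 1.15 against 0 for all genes). Of all genes measured there, 14.2% were higher and 10.5% lower. The largest, in island macrophage-like against monocyte-like cells, were Clec4n (dectin 2) at 527 against 18.2 CPM, the transferrin receptor Tfrc at 331 against 11.8 CPM, Clec1b at 111 against 2.97 CPM and the hyaluronan receptor Stab2 at 71.3 against 0.12 CPM. Tfrc is also an erythroid gene. The late erythroid markers, mostly globin by sum as given above, do not include it, and the erythroid part of its level was not tested. Against Fcgr4-led cells, 7 of 12 were higher and none lower, where 8.78% of all genes were higher and 5.33% lower. Cd163, the haptoglobin-hemoglobin receptor, was at 59.8 against 0.30 CPM. Cd163 was among the markers that named the class. Stab2 and Clec1b are also endothelial and platelet genes. In island macrophage-like cells the endothelial and stromal marker list summed to 491 CPM (9 of 11 detected, Emcn and Col3a1 at 0, 247 to 851 over runs). The megakaryocyte list summed to 363 CPM (10 of 10 detected, 126 to 985 over runs). Each sum includes the gene in question, Stab2 at 71.3 CPM and Clec1b at 111 CPM, and the first also holds Fabp4. The sums are therefore no independent measure of RNA from other cells, whose part was not tested.

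Of the lipid genes around the nuclear receptors LXR and PPAR gamma, which in mice control Cd5l and Cd36, 13 of 23 were higher than in monocyte-like cells and none lower (median 2.13). Of all genes measured there, 14.2% were higher and 10.5% lower. LXR alpha itself, Nr1h3, was at 340 CPM in island macrophage-like cells, against 7.22 CPM in monocyte-like cells. In the same 2 classes the cholesterol exporter Abca1 was at 216 against 11.7 CPM, the fatty acid carrier Fabp4 at 284 against 4.89 CPM and the lipoprotein Apoe, itself a naming marker, at 9133 against 717 CPM. Against Fcgr4-led cells 8 of 23 were higher and none lower (median 0.83), where 8.78% of all genes were higher and 5.33% lower. Gpnmb was at 165 against 5.98 CPM and Fabp5 at 638 against 110 CPM. Over erythroid stages 6 of these genes were measured (medians -0.0022 and 0.15). At 20 to 60% against 2 to 20% globin, Fabp5 was lower, at 22.8 against 238 CPM, as were 3.96% of all genes. At 60 to 80% against 2 to 20% globin only Mylip was higher, at 30.7 against 35.8 CPM, a centred difference of 1.33 with a lower plain level. Of all genes, 15.6% were higher there.

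Of macrophage transcription factors, 5 of 17 were higher and 2 lower against monocyte-like cells (median 0.07), where 14.2% of all genes were higher and 10.5% lower, so the share of the list that was lower was near that of all genes. In island macrophage-like against monocyte-like cells, Spic, a naming marker, was at 775 against 3.49 CPM and Maf at 586 against 35.5 CPM. Cebpb was lower at 488 against 1438 CPM, and Id3 at 8.11 against 47.5 CPM. Against Fcgr4-led cells 6 of 17 were higher and none lower (median 0.04), where 8.78% of all genes were higher and 5.33% lower. Maf was at 586 against 111 CPM and Tfec at 48.3 against 0.30 CPM. In the erythroid comparisons, none of 4 scavenger receptors and none of 3 transcription factors measured was counted. Of all genes measured there, 10.2% were counted in either direction for the mid against the early stage. For the late against the early stage the share was 27.8%. With so few genes measured, a count of none does not set these lists apart from all genes.

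Of lysosomal genes and the cargo of Scarb2, 14 of 20 were higher than in monocyte-like cells (median 1.48) and 13 of 20 higher than in Fcgr4-led cells (median 1.31), and none was lower in either comparison. Of all genes, 14.2% were higher and 10.5% lower against monocyte-like cells, and 8.78% higher and 5.33% lower against Fcgr4-led cells. Cathepsin D, Ctsd, was at 4576 CPM in island macrophage-like cells, against 1009 CPM in Fcgr4-led and 295 CPM in monocyte-like cells. Cathepsin B, Ctsb, was at 7247 CPM in island macrophage-like cells, against 1361 CPM in Fcgr4-led and 584 CPM in monocyte-like cells. Legumain, Lgmn, a naming marker, was at 1747 CPM in island macrophage-like cells, against 301 CPM in Fcgr4-led and 87.9 CPM in monocyte-like cells. The membrane protein Cd63 was at 461 CPM in island macrophage-like cells, against 55.9 CPM in Fcgr4-led and 18.1 CPM in monocyte-like cells. Of the IgM genes, 3 were measured. Ighm, the IgM heavy chain to which Cd5l protein binds, was lower, at 66.2 CPM in island macrophage-like cells, against 504 CPM in Fcgr4-led and 347 CPM in monocyte-like cells. In the erythroid comparisons 8 lysosomal genes were measured and 1 counted, Ctsb, at 415 CPM at 60 to 80% globin against 290 CPM at 2 to 20%. Of all genes, 15.6% were counted as higher there. Ighm and Igkc were also counted as higher at 60 to 80% globin, where Ighm was at 25.2 CPM, against 21.6 CPM at 2 to 20%, and Igkc at 158 CPM, against 152 CPM. These counts came with the centring: the uncentred log2 differences were 0.50 for Ctsb, 0.16 for Ighm and 0.05 for Igkc, all under 2-fold.

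The genes whose level over 33 clusters of at least 50 cells was most like that of each member were taken by Pearson's r among 7142 genes, as a description over clusters that share libraries. For Cd5l they were Rims3 (0.97), Gdf15 (0.97) and Cmbl (0.95), and for Marco Kcnj10 (0.97), Pla2g2d (0.95) and Kcna2 (0.95). For Mrc1 they were the complement gene C4b (0.99), Igf1 (0.97) and Ccdc152 (0.96). For Cd36 they were the late erythroid gene Tmcc2 (0.89), Ccdc92b (0.89) and Yipf4 (0.88). Msr1 was nearest to the chemokine gene Ccl7 (0.96), Lrp1 (0.95) and Tmem106a (0.92), and Cd68 to Ifi207 (0.96), Sowahc (0.95) and Mpeg1 (0.95). For Scarb2 the 3 were Ctsa (0.89), which encodes a lysosomal carboxypeptidase, Ssfa2 (0.89) and Tbc1d22a (0.89).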

How the data were processed

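Libraries were made with 10x Genomics V3.1 reagents, per the labels' protocols. What the authors deposited is a single matrix of raw UMI counts, genes by cells. The submitters' processing notes list mm10, Seurat 3.1.5 and Cell Ranger 5.0.0, and the authors' cell filters were not given in the sources used here. No column named a library, so the planned comparison of transgenic with control libraries was not made.

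No cell fell under 200 genes or over 20% mitochondrial UMIs. Scrublet called 17 doublets (0.068%), too few for the caller to have worked, so undetected doublets remain. The other 24925 cells were clustered with scanpy 1.11.5 on Python 3.11.15 from 2000 variable genes, the 7 genes left out, with 30 principal components and 15 neighbours (leidenalg 0.10.2, resolution 1, seed 0, scikit-learn 1.9.0), which gave 34 clusters. Names rest on RNA markers, at least 3 of them at 50 CPM, and a difference from the study may come from these rebuilt names. A cluster with Fcgr4 among its 10 leading genes was named for that gene, since its other leading genes belonged to several classes. Stages of erythroid-like cells were set by globin share, as ranges and not as types.

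Summed UMIs of each class were turned into CPM with pandas 2.3.3, numpy 2.4.6 and scipy 1.17.1, and drawn with matplotlib 3.10.9. A gene entered a comparison if either class had 20 CPM or more. It was counted if the pooled classes differed by 2-fold or more and all runs holding 20 cells or more of each class had the same sign. Such counts are descriptions without a test. The calculation was tested on simulated data. The 7 genes, the 5 gene lists and the markers were chosen with earlier results of these data known. Clec7a, Cd209b, Dmbt1 and Cd207 were listed but had no row under these names. From each list, up to 4 counted genes per direction and comparison were taken by size, and the text names some of these, with 3 nearest genes per member. The finer clusters and the splits of the late erythroid-like and the endothelial and stromal-like cells were chosen after values were seen. Alternatives changed 1 choice at a time. Promoter sequences are from RefSeq.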

Additional observations from a re-analysis of the deposited data

How the results depend on the processing

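The count of 3 genes higher in island macrophage-like than in Fcgr4-led cells depended most on the processing. It was 6 with the 7 genes kept among the variable genes, 5 at resolution 0.5, 5 in cells of 500 genes or more with mitochondrial UMIs up to 10%, 5 without the highest 6% of doublet scores and 1 (Scarb2) at resolution 2, where 7 runs were compared. It was 3 to 5 when each run was left out in turn. The share of all genes counted against Fcgr4-led cells also changes with the setting. It was 14.1% in the main setting and 6.0% at resolution 2, and is not given here for the others. Without it, a change in the count cannot be read as a change particular to the 7 genes. The other counts stayed within 1.5 times under every alternative run. These were 5 or 6 genes against monocyte-like cells and 1 at each erythroid stage. Island macrophage-like cells had the highest level of 5 or 6 of the 7 genes, Msr1 leaving the list without run 7. The share of island macrophage-like cells with Cd5l was 53.7% at 500 UMIs per cell and 84.1% at 2000, against 71.9% at 1000. Without the highest 6% of doublet scores, no run held enough cells of both classes for a count against monocyte-like cells. At resolution 2 the share of all genes counted was 15.1% against monocyte-like and 6.0% against Fcgr4-led cells. With 1 CPM added in place of 10, 42.1% of all genes were counted at 60 to 80% globin and 18.7% at 20 to 60%. Of the single-gene values, 54 moved by more than their run spread or counting interval, 383 did not, and no counted difference changed sign. Leaving out recurring barcodes or joining the shallow Fcgr4-led cluster, both chosen after the data were seen, changed no count. No paired analysis was possible because transgenic and control cells could not be told apart; classes and stages were compared within unnamed runs, with no test made. At 1000 UMIs per cell, Msr1, Marco and Cd36 were each detected in under 10% of island macrophage-like cells, and most of their Marco UMIs were in runs 5 and 7.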
